A study of Mus musculus with 12 samples.

Results

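The 9 genes of insulin signalling described here were followed in the hypothalamus of Asmt-knockout and swimming mice. They were the insulin receptor Insr, its substrates Irs1 and Irs2, the PI3-kinase regulatory subunit Pik3r1, the kinase Akt2 and the transcription factor Foxo1. The others were Stat3, Socs3 and Ptpn1, which carry or restrain leptin and insulin receptor signals. Members were all probes whose gene symbol was 1 of these 9, of 27308 gene symbols on the array, which gave 17 of 56605 probes. The question was whether loss of Asmt, the last enzyme of melatonin synthesis, or swimming training moved the mRNA of this pathway. RNA of hypothalamus tissue was measured on Agilent mouse arrays with 1 dye, 3 arrays in each of 4 groups. WT were wild-type males without training, KO were Asmt-knockout males without training, exercised WT were wild-type males with swimming exercise, and KE were Asmt-knockout males with swimming exercise. The labels gave an age of 6 to 7 weeks for all groups, which the methods gave as the age when training began. The knockout was made with CRISPR/Cas9 in C57BL/6 zygotes, came from a founder with a deletion of 20 bp and was backcrossed for 3 generations, and the wild-type mice were littermates. The labels did not state that each array came from a separate mouse, so p-values measure the spread between these samples.

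Insulin binding activates the receptor kinase, which phosphorylates the IRS proteins. These recruit PI3-kinase, whose lipid product activates AKT, and AKT in turn keeps FOXO1 out of the nucleus. In hypothalamic neurons the same cascade meets leptin signalling: the leptin receptor activates STAT3, STAT3 induces Socs3, and both SOCS3 and the phosphatase PTP1B, encoded by Ptpn1, restrain leptin and insulin receptors.

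The pathway was readily measured. Of the 17 probes, 14 were tested, and all 14 were well above background on all 12 arrays. Among them were probes of Insr, Irs1, Irs2, Pik3r1, Akt2 and Foxo1. The other 3 were further probes of genes that had another: one for Insr, well above background on 2 arrays, and one each for Stat3 and Ptpn1, well above background on none. They gave no level and were not tested. Probes of a gene are numbered here, and all values are quantile-normalized log2 signals of the authors' table unless a fold is named.

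Array quality and layout bear on every value. The share of spots well above background ran from 61.62% to 67.91% over the arrays, no spot was saturated, and arrays correlated at r between 0.9831 and 0.9965 over the probes tested. The 17 of 17 hypothalamic marker genes were detected in the tissue. The single Asmt probe was not well above background on any array, so it could not check the genotype labels. The arrays lay on 2 slides: slide 1 held all WT arrays with 2 of the KO arrays (replicates 1 and 2), and slide 2 held KO replicate 3 and all exercised WT and KE arrays. The first principal component held 47.3% of the variance and placed slide 1 between -47.5 and -29.5 and slide 2 between 19.3 and 40.0, with KO replicate 3 at 40.0. Training and slide therefore cannot be told apart in exercised WT against WT, and KO was the only group on both slides. A second fit with slide as a block took its slide term from KO alone: it set KO replicates 1 and 2 against WT, and KE against KO replicate 3. KE and exercised WT shared a slide.

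The probes the results turned on are shown by the first 30 of their 60 bases. For Foxo1, Akt2 and Stat3, probes of the same gene gave different answers. The probes shown were Irs2 1, the only Irs2 probe, both Foxo1 probes, Akt2 3 and Stat3 1, each written 5′ to 3′ as in the scanner output.
Irs2 1: tggagctttgccctctgccagcacctatgc
Foxo1 1: tgacagcaggaactgaggagcattccaaag
Foxo1 2: ttctgggagaatgttcgctttctggtctat
Akt2 3: gtcatggagcatagattcttcctcagcatc
Stat3 1: cactctgtgagctgataccccaggctggga
The array annotation, build mm9, placed Irs2 1 at chr8:11004490-11004549 on the minus strand and Stat3 1 at chr11:100749598-100749657 on the minus strand. Foxo1 1 lay at chr3:52150946-52151005 and Foxo1 2 at chr3:52153289-52153348, both on the plus strand. Akt2 3 was assigned to transcript variant 2 of Akt2 and covered chr7:28421973-28422113 on the plus strand, so its 60 bases spanned 141 genomic bases and crossed a gap. Exon and UTR annotation of this build was not used here.

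**Figure D1:**
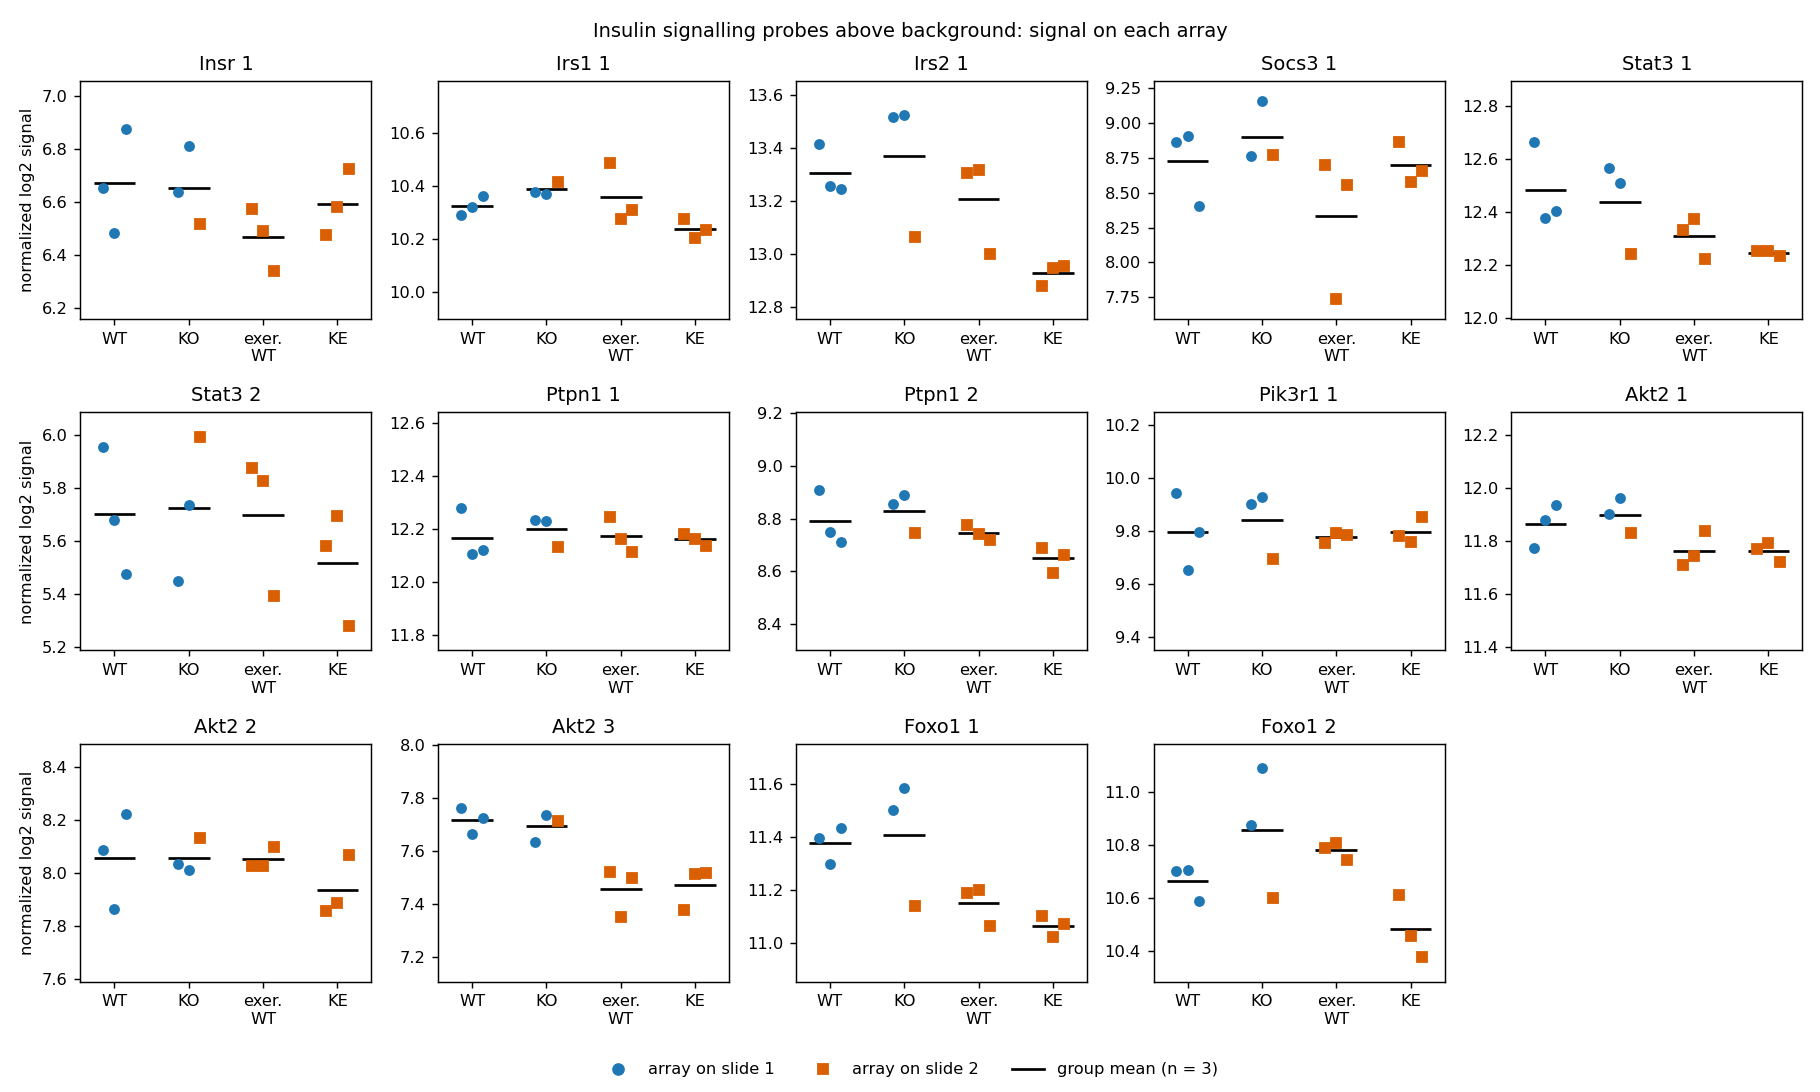
Normalized log2 signal (vertical axis) of the 14 tested probes on each array, by group (horizontal axis); exer. WT is exercised WT, points are arrays, circles on slide 1 and squares on slide 2, and lines are means of 3 arrays. Akt2 3 lay at or above 7.63 on all WT and KO arrays of both slides and at or below 7.52 on all exercised WT and KE arrays, whereas KO replicate 3 of Irs2 1 and Foxo1 1 lay apart from the other 2 KO arrays.

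With all arrays in the fit, no member passed the adjusted threshold in any comparison, and no difference reached 2-fold. In KO versus WT the log2 fold changes of the 14 probes lay between -0.04 and 0.19, with a median of 0.03 against -0.01 over all 35230 probes tested. None had an unadjusted p of at most 0.05 by limma, against 5.48% of all probes, none met the screening criterion of the methods (at least 2-fold at an unadjusted p no higher than 0.05), against 0.224%, and none had an adjusted p under 0.05, against 0%. Only Irs1 had all KO arrays above all WT arrays, where 3.58% of all probes did so. Between KO replicates 1 and 2 and WT, as the slide block compares them, both Foxo1 probes passed the unadjusted level, higher in KO, against 5.48% of all probes. Without the slide term, no 95% interval in KO versus WT went beyond 0.44 on the log2 scale apart from that of Socs3, which reached 0.71. Once slide was a block, intervals reached 0.51 for Foxo1 2, -0.56 for Stat3 2 and 0.87 for Socs3.

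In KE versus KO all 14 probes were lower in KE, between -0.44 and -0.04, with a median of -0.19 against -0.04 over all probes, 58.5% of which were lower. A group of 6 probes, for Irs2, Foxo1 (both probes), Akt2, Ptpn1 and Irs1, had an unadjusted p of at most 0.05 by limma and all were lower in KE, where 13% of all probes were lower at that level and 21.1% passed it in either direction. None of the 14 met the screening criterion, against 1.21% of all probes, and none had an adjusted p under 0.05, against 0.0199%. Also 6 probes had KE arrays that did not overlap the KO arrays, all lower, against 15.4% of all probes. The median with slide as a block was -0.09, and 1 probe, Akt2 3, kept an unadjusted p of at most 0.05, against 9.04% of all probes. The count turned on KO replicate 3. Without it, limma called 5 member probes (Irs2 1, Stat3 1, Ptpn1 2 and both Foxo1 probes) at an adjusted p under 0.05, all lower in KE, where 24.3% of all probes were called and 13% were called lower; KO was then on slide 1 alone and KE on slide 2.

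In exercised WT versus WT the log2 fold changes lay between -0.40 and 0.11 and the median was -0.07, against -0.04 over all probes. Akt2 3 alone had an unadjusted p of at most 0.05 by limma, against 26% of all probes, none of the 14 met the screening criterion, against 2.19%, and none had an adjusted p under 0.05, against 0%. Once slide was a block, 3 probes had an unadjusted p of at most 0.05, against 6.18% of all probes: Akt2 3, lower in exercised WT, and Irs2 1 and Foxo1 2, higher in exercised WT. Without KO replicate 3, which is in neither group but enters the shared estimate of the spread, 2 probes, Akt2 3 and Foxo1 1, had an adjusted p under 0.05 by limma, against 18% of all probes.

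KE versus exercised WT, the knockout comparison among trained mice, lay wholly on slide 2. The log2 fold changes lay between -0.30 and 0.37 with a median of -0.07, against -0.01 over all probes. Foxo1 2 alone had an unadjusted p of at most 0.05 by limma, against 6.66% of all probes, none met the screening criterion, against 0.253%, and none had an adjusted p under 0.05, against 0%. The KE arrays of Irs2 1, Ptpn1 2 and Foxo1 2 lay below all exercised WT arrays, as did those of 11.2% of all probes. The slide term did not move these values, but in that fit Irs2 1 and Foxo1 2 passed the unadjusted level, against 10.2% of all probes.

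KE versus WT differed in genotype, training and slide at once. All 14 probes were lower in KE, as were 62.6% of all probes, with a median of -0.13 against -0.07 over all probes. In the fit with slide as a block the median was 0.07, and 1 probe, Akt2 3, passed the unadjusted level, against 4.89% of all probes. Irs2 1, Stat3 1, Akt2 3 and Foxo1 1 had an unadjusted p of at most 0.05 by limma, against 30.4% of all probes, none of the 14 met the screening criterion, against 2.74%, and none had an adjusted p under 0.05, against 0%. Without KO replicate 3, Irs2 1, Akt2 3 and Foxo1 1 were called at that adjusted level by limma, against 23.2% of all probes. A limma fit of only KE and WT also called 3 member probes, against 17.6% of all probes, and the methods' t-test called 2, against 13.8%. KE, KO, exercised WT and WT arrays recur in these comparisons, which are therefore not independent of each other. In none of the 5 comparisons did the interval of a member reach 2-fold without the slide term; the widest bound was -0.94 on the log2 scale, for Socs3 in exercised WT versus WT. With slide as a block the intervals of Socs3 and Stat3 2 reached past 2-fold in exercised WT versus WT and KE versus WT, and that of Stat3 2 did in KE versus KO.

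The interaction, the training difference in knockout mice minus that in wild-type mice, lay between -0.49 and 0.20 for the 14 probes, with a median of -0.08 against -0.01 over all probes. Foxo1 2 alone had an unadjusted p of at most 0.05 by limma, against 7.75% of all probes, none met the screening criterion, against 0.593%, and none had an adjusted p under 0.05, against 0%. The unadjusted level was passed by 3 probes, Irs2 1 and both Foxo1 probes, all below 0, once slide was a block, against 10.8% of all probes.

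**Figure D2:**
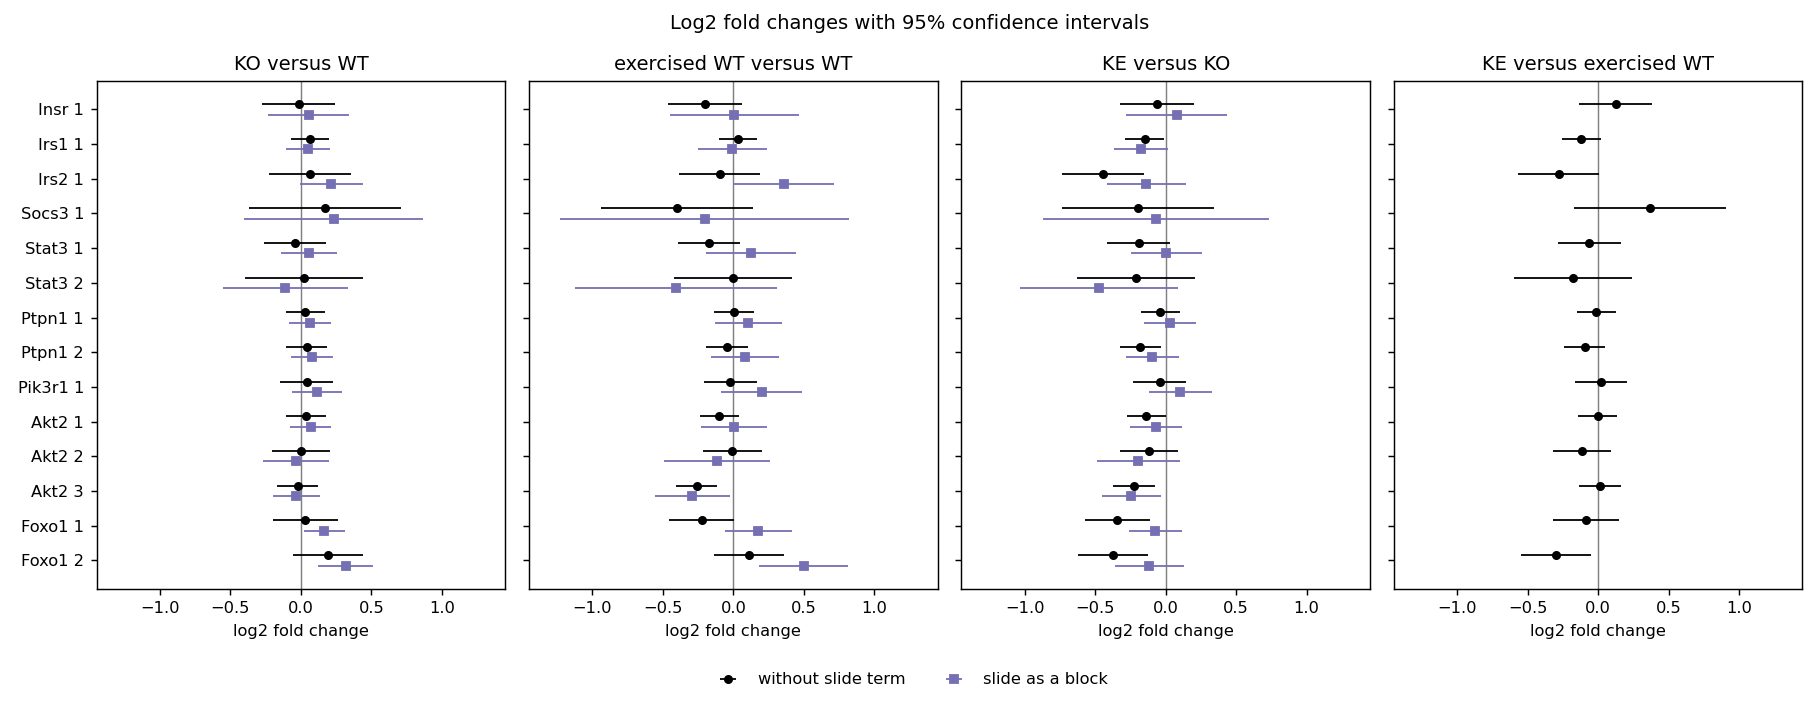
Log2 fold changes (horizontal axis) of the 14 tested probes (vertical axis) in 4 comparisons, with 95% confidence intervals from limma; black circles are without a slide term and purple squares are with slide as a block, which does not move the values of KE versus exercised WT and is not drawn there. For Irs2 1 in KE versus KO the value went from -0.44 to -0.14 with the block, for Foxo1 1 from -0.34 to -0.07, and for Akt2 3 from -0.22 to -0.24.

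Insr encodes the receptor itself, and its signal did not separate any groups. The Insr 1 probe read 6.66, 6.49 and 6.88 in WT and 6.64, 6.81 and 6.52 in KO. It read 6.58, 6.49 and 6.34 in exercised WT and 6.48, 6.58 and 6.73 in KE. The groups overlapped in every comparison, and the difference furthest from 0 was exercised WT versus WT at -0.20 ± 0.117 (SE; limma, adjusted p = 0.291).

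Irs1 and Irs2 encode the main docking proteins of the receptor. Irs1 read 10.29, 10.32 and 10.36 in WT, 10.38, 10.37 and 10.41 in KO, 10.49, 10.28 and 10.31 in exercised WT, and 10.28, 10.21 and 10.23 in KE. Every KE array lay below every KO array, and KE was 1.11-fold lower (log2 -0.15 ± 0.0617 SE; limma, unadjusted p = 0.0365, adjusted p = 0.214). KO replicate 3 lay 0.04 above the mean of the other KO arrays, and with slide as a block the value was -0.18.

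Irs2 read 13.42, 13.26 and 13.25 in WT and 13.52, 13.53 and 13.07 in KO. It read 13.30, 13.32 and 13.00 in exercised WT and 12.88, 12.95 and 12.95 in KE. KE was the lowest group and its 3 arrays lay below all 9 others, while WT, KO and exercised WT overlapped. How many of all probes had KE below all 9 others was not counted, so this cannot be called particular to Irs2. KE lay below all KO arrays for 15.4% of all probes and below all exercised WT arrays for 11.2%. KE was 1.36-fold lower than KO (log2 -0.44 ± 0.129 SE; limma, unadjusted p = 0.00652, adjusted p = 0.156) and 1.22-fold lower than exercised WT on the same slide (log2 -0.28 ± 0.129 SE; limma, unadjusted p = 0.0549, adjusted p = 0.755). KO replicate 3 lay 0.46 below the mean of KO replicates 1 and 2. Against KO replicate 3 alone, as the slide block compares them, KE differed by -0.14 (limma, unadjusted p = 0.292), and without that array KE versus KO was -0.60 (limma, adjusted p = 0.00343). In KE versus WT the value of -0.38 became 0.08 with the block, and -0.22 with normexp background correction of the scanner signal (limma, unadjusted p = 0.109).

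Pik3r1 encodes the regulatory p85 alpha subunit that holds PI3-kinase at the IRS proteins. Its probe read 9.95, 9.65 and 9.80 in WT, 9.90, 9.93 and 9.69 in KO, 9.76, 9.79 and 9.78 in exercised WT, and 9.78, 9.76 and 9.85 in KE. All groups overlapped, and the interval of KE versus exercised WT ran from -0.17 to 0.21. The probe covered 1043 genomic bases with its 60 bases, so it too crossed a gap.

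Akt2, the AKT isoform best known for insulin-driven glucose uptake, had 3 probes with unlike patterns. Akt2 3 read 7.76, 7.66 and 7.73 in WT and 7.63, 7.73 and 7.71 in KO. It read 7.52, 7.35 and 7.50 in exercised WT and 7.38, 7.51 and 7.52 in KE. Every trained array lay below every untrained array, as for 2.48% of all probes. KO replicate 3, on the slide of the trained arrays, was nearer the slide 1 arrays here and for 6 of the 14 member probes in all, whereas for 72.7% of all probes it was nearer slide 2. Exercised WT was 1.20-fold lower than WT (log2 -0.26 ± 0.0658 SE; limma, unadjusted p = 0.00269, adjusted p = 0.0934), and KE was 1.17-fold lower than KO (log2 -0.22 ± 0.0658 SE; limma, unadjusted p = 0.00686, adjusted p = 0.157). The value of exercised WT versus WT was -0.29 with slide as a block (limma, unadjusted p = 0.0357, adjusted p = 0.801). That of KE versus KO was -0.24 with the block (limma, unadjusted p = 0.0272, adjusted p = 0.479). The interaction was 0.04 with an interval from -0.17 to 0.25, and KO versus WT was -0.02. Without KO replicate 3 the exercised WT versus WT value had an adjusted p of 0.0259 by limma. With normexp background correction that value was -0.13 ± 0.071 (SE; limma, unadjusted p = 0.0872, adjusted p = 0.235), and KE versus KO was -0.18 (limma, unadjusted p = 0.0239).

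In the main fit the other Akt2 probes, both assigned to transcript variant 1, did not repeat this. Akt2 1 stood at -0.10 in exercised WT versus WT and at -0.14 in KE versus KO, where its KE arrays did lie below all KO arrays, and with the block these values were 0.00 and -0.07. Akt2 2 stood at -0.01 in exercised WT versus WT and -0.12 in KE versus KO, with overlapping groups in both. With normexp background correction Akt2 1 came near Akt2 3. It was -0.10 in exercised WT versus WT (limma, unadjusted p = 0.0905) and -0.17 in KE versus KO (limma, unadjusted p = 0.0109, adjusted p = 0.168). Akt2 2 was then 0.07 and -0.12. Across the 12 arrays Akt2 3 correlated with Akt2 1 at r = 0.624 and with Akt2 2 at r = 0.421, given as a description over arrays that share slides and groups. Whether the probes differ by transcript was not tested.

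Foxo1 encodes the transcription factor that AKT restrains, and both its probes had lower means in KE than in KO. Foxo1 1 read 11.40, 11.30 and 11.44 in WT, 11.50, 11.59 and 11.14 in KO, 11.19, 11.20 and 11.06 in exercised WT, and 11.10, 11.02 and 11.07 in KE. All slide 2 arrays lay below all slide 1 arrays, KO replicate 3 included, as they did for Stat3 1 and for 11.5% of all probes. KE versus KO was -0.34 ± 0.104 (SE; limma, unadjusted p = 0.00809, adjusted p = 0.16), -0.07 with slide as a block, and -0.48 without KO replicate 3 (limma, adjusted p = 0.00137). Exercised WT versus WT was -0.23 (limma, unadjusted p = 0.0554, adjusted p = 0.202), with all exercised WT arrays below all WT arrays, and had an adjusted p of 0.0292 by limma without KO replicate 3. With slide as a block the exercised WT versus WT value reversed to 0.18.

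Foxo1 2 read 10.70, 10.71 and 10.59 in WT and 10.88, 11.09 and 10.60 in KO. It read 10.79, 10.81 and 10.74 in exercised WT and 10.61, 10.46 and 10.38 in KE. All KE arrays lay below all exercised WT arrays, as did those of 11.2% of all probes. All exercised WT arrays lay above all WT arrays, which were on the other slide. That held for 1 of the 14 probes, and the share of all probes is not given here. KE versus exercised WT, on one slide, was 1.23-fold lower (log2 -0.30 ± 0.112 SE; limma, unadjusted p = 0.024, adjusted p = 0.709). KE versus KO was 1.29-fold lower (log2 -0.37 ± 0.112 SE; limma, unadjusted p = 0.00757, adjusted p = 0.16), but the groups overlapped through KO replicate 3, and with slide as a block the value was -0.12 (limma, unadjusted p = 0.316). Exercised WT versus WT was 0.11 and became 0.50 with the block (limma, unadjusted p = 0.00593, adjusted p = 0.658), and KO versus WT was 0.19 and became 0.32 (limma, unadjusted p = 0.00509, adjusted p = 0.788). Without the slide term, the training difference in wild-type mice had an interval from -0.14 to 0.36 and, unlike that of Foxo1 1, was not below 0. With slide as a block it was above 0 for both Foxo1 probes. The interaction of -0.49 ± 0.158 (SE) did not pass the adjusted threshold (limma, unadjusted p = 0.0117, adjusted p = 0.56). With slide as a block it was -0.62 (limma, unadjusted p = 5e-04, adjusted p = 0.267).

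Stat3, Socs3 and Ptpn1 stand at the leptin side of the pathway. Stat3 1, assigned to transcript variant 1, read 12.67, 12.38 and 12.40 in WT, 12.57, 12.51 and 12.24 in KO, 12.33, 12.37 and 12.22 in exercised WT, and 12.25, 12.26 and 12.23 in KE. The KE arrays had an SD of 0.011 (n = 3) and lay at the level of KO replicate 3, from which their mean differed by 0.00. KE versus WT was -0.23 ± 0.0992 (SE; limma, unadjusted p = 0.0396, adjusted p = 0.145) and 0.06 with slide as a block. It was -0.09 with normexp background correction (limma, unadjusted p = 0.285) and -0.14 without WT replicate 1. KE versus KO was -0.19 (limma, adjusted p = 0.285), -0.07 with normexp, and -0.29 without KO replicate 3 (limma, adjusted p = 0.0401). Stat3 2, assigned to transcript variant 3, was spread widely within every group, from 5.28 to 5.99 over the 12 arrays, and its groups overlapped throughout.

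Socs3, the feedback inhibitor that STAT3 induces, had the widest spread within a group of the 14 tested probes, an SD of 0.52 in exercised WT. It read 8.87, 8.91 and 8.41 in WT, 8.76, 9.16 and 8.77 in KO, 8.70, 7.74 and 8.56 in exercised WT, and 8.86, 8.58 and 8.65 in KE. Exercised WT replicate 2 was the lowest array, and the groups overlapped in every comparison made. Exercised WT versus WT was -0.40 ± 0.242 (SE; limma, adjusted p = 0.312) and KE versus exercised WT was 0.37 ± 0.242 (SE; limma, adjusted p = 0.816). STAT proteins bind sites with the letters TTCNNNGAA, which read the same on both strands, so the 250 bases before the Socs3 start are shown with this match in capitals (RefSeq, GRCm38.p6, chr11:117969367-117969616, minus strand, a different build from that of the probes).
Socs3 upstream: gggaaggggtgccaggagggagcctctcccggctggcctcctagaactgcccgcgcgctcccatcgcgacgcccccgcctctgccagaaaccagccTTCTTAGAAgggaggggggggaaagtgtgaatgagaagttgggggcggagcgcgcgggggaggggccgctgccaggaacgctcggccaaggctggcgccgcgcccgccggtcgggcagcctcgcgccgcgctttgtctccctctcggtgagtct
The match began 154 bases before the start. Promoter windows of 300 bases were found for 8 of the 9 genes, in 12 entries, and 2 entries, of Socs3 and Akt2, held these letters, as did 8.3% of all 32851 windows. The letters TGTTTAC, of FOXO sites, were searched on both strands and found in none of the 12 entries and in 3.65% of all windows.

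Ptpn1 encodes PTP1B, the phosphatase that removes phosphate from the insulin receptor and from the leptin receptor's kinase. Ptpn1 1 had the narrowest range of the 14 tested probes, between 12.10 and 12.28 over all arrays, and its groups overlapped in every comparison. Ptpn1 2 read 8.91, 8.75 and 8.71 in WT, 8.85, 8.89 and 8.75 in KO, 8.78, 8.74 and 8.72 in exercised WT, and 8.69, 8.59 and 8.66 in KE. The KE arrays were the lowest of all 12, as for Irs2 1. How many of all probes did so was not counted, so this cannot be called particular to these genes. KE versus KO was -0.18 ± 0.0654 (SE; limma, unadjusted p = 0.0201, adjusted p = 0.182), -0.10 with slide as a block, and -0.22 without KO replicate 3 (limma, adjusted p = 0.0377).

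**Figure D3:**
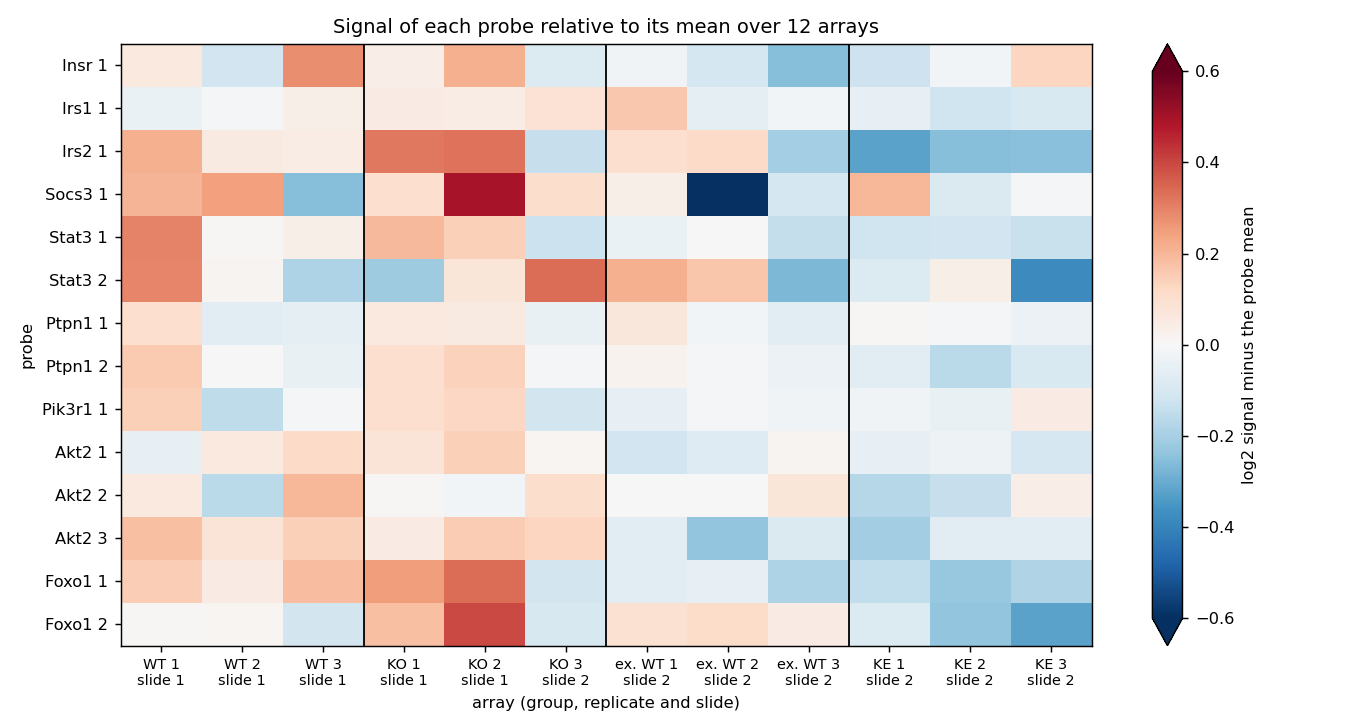
Log2 signal of each tested probe (rows) on each array (columns, with group, replicate and slide; ex. WT is exercised WT) minus that probe's mean over 12 arrays; red is above and blue below the mean, and the ends of the scale hold values beyond 0.6. Irs2 1, Stat3 1 and both Foxo1 probes were above their mean on KO replicates 1 and 2 and below it on KO replicate 3, and Akt2 3 was above its mean on all 6 untrained arrays and below it on all 6 trained arrays.

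KO replicate 3 was below both other KO arrays for 9 of the 14 probes and above both for 3, against 49.8% and 33.3% of all probes. Markers of other cell types were read from the same arrays as sums of linear signal, and every gene of the next 3 lists was detected. The 6 astrocyte markers summed to between 141100 and 143800 in WT, to 145700, 152200 and 123500 in KO replicates 1 to 3, to between 128400 and 135900 in exercised WT, and to between 120000 and 128400 in KE. The 6 microglial markers summed to between 21940 and 22160 in WT, between 21050 and 22720 in KO, between 20380 and 22500 in exercised WT, and between 20260 and 20880 in KE. The 5 endothelial markers summed to between 22510 and 24140 in WT, between 19870 and 25360 in KO, between 20400 and 22900 in exercised WT, and between 20420 and 20720 in KE. In each of these sums KO replicate 3 was the lowest KO array, as it was for Irs2 and Foxo1, although Gja1 of the astrocyte list and P2ry12 of the microglial list were highest there. Aqp4 of the astrocyte list, Cx3cr1 and Aif1 of the microglial list and Cldn5 of the endothelial list lay between the other KO arrays. Linear sums weigh bright genes most. Aldoc was the brightest astrocyte marker, at a log2 mean of 16.70 in WT, and Slc1a3 followed at 13.87. KO replicate 3 was also the lowest KO array for the oligodendrocyte, ependymal, choroid plexus, striatal, thalamic and pituitary sums. It was the highest for the neuronal sum, at 135700 against 115600 and 112900. Of the neuronal genes, Snap25, Stmn2 and Syt1 were highest there, and Rbfox3 lay between the other KO arrays. Tubb3 was lowest there, at 14.02 against 14.12 and 14.19 on the log2 scale. In the other lists named, Mag, Foxj1, Aqp1, Drd2, Tcf7l2, Lef1, Lhb and Tshb were highest there. KO replicate 3 was the only KO array on slide 2, so sample and slide cannot be told apart in these sums. All slide 2 arrays lay below all slide 1 arrays in the astrocyte sum and above them in the neuronal sum. Single genes differed from their sum. Tubb3 of the neuronal list averaged 14.16 in WT, 14.01 in exercised WT and 13.99 in KE. Gja1 of the astrocyte list averaged 10.61, 10.78 and 10.75. In the microglial and endothelial sums the slides overlapped. The part of these cells in the members' values was not tested. In a bulk tissue, fewer cells of a type and less RNA per cell cannot be told apart.

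Among the members' brightest probes, Irs2 and Foxo1 had the highest r over the 12 arrays, 0.890, which was 0.771 after centring within slide. Within slide the highest r was that of Stat3 and Ptpn1, 0.855, against 0.701 before centring. Stat3 followed Irs2 at r = 0.873 and Foxo1 at r = 0.854, with 0.695 and 0.462 within slide. These correlations describe 12 arrays that share slides and groups. Over 28086 probes well above background on all arrays, the gene most like Irs2 was Rpp25l (r = 0.969), that most like Foxo1 was Ankrd26 (r = 0.977), that most like Stat3 was Naa16 (r = 0.981) and that most like Socs3 was Hmx2 (r = 0.937). For Insr it was Tax1bp1 (r = 0.903), for Irs1 Hist3h2a (r = 0.896), for Ptpn1 Fndc3a (r = 0.937), for Pik3r1 Slc25a39 (r = 0.930) and for Akt2 Card6 (r = 0.928). After centring within slide these r values lay between 0.851 and 0.945.

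The wider pathway was read from 3 lists, each gene by its brightest tested probe: 23 of 24 genes of the receptor and ligand side, 28 of 29 of the PI3K, AKT and mTOR side, and 27 of 30 of glucose sensing and handling. By limma, no listed gene reached an adjusted p under 0.05 in any comparison. The counts at an unadjusted p of at most 0.05 stand against the shares of all probes given above, which were 21.1% for KE versus KO, 26% for the wild-type training comparison, 6.66% for the genotype comparison among trained mice and 30.4% for KE versus WT. In KE versus KO, 2 receptor-side genes were higher and 1 was lower at an unadjusted p of at most 0.05, 2 PI3K-side genes were higher and 2 lower, and 2 glucose genes were higher and 3 lower. In exercised WT versus WT, 2 receptor-side genes were higher and 3 lower, 5 PI3K-side genes were higher and 0 lower, and 1 glucose gene was higher and 5 lower. The same counts, in that order, were 2 and 0, 0 and 1, and 1 and 1 in KE versus exercised WT, and 3 and 4, 4 and 2, and 3 and 3 in KE versus WT. They became, under the slide block, 0 and 1 for each list in KE versus KO, 0 and 1, 0 and 1, and 2 and 0 for the wild-type training comparison, 3 and 0, 2 and 2, and 1 and 2 for the trained mice, and 0 and 1, 0 and 0, and 0 and 0 for KE versus WT. In KO versus WT no listed gene passed that level without the block and 1 glucose gene did with it (Txnip, a glucose-induced arrestin, at 0.52, named after its value was seen). Without the block the smallest p values belonged to Ins2 (0.83), Pik3ca, a catalytic PI3-kinase subunit (0.30), and Slc2a1, the glucose transporter GLUT1 (0.19; limma, adjusted p = 0.849 for each). With slide as a block these were 0.29, -0.03 and 0.18.

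Lepr, the leptin receptor, had the smallest p on the receptor side in KE versus KO and KE versus exercised WT. It was higher in KE than in exercised WT by 0.38 ± 0.075 (SE; limma, unadjusted p = 0.000535, adjusted p = 0.438) and than in KO by 0.28 ± 0.075 (SE; limma, adjusted p = 0.148), the latter 0.20 with slide as a block. Slc2a4, the insulin-responsive glucose transporter GLUT4, stood 0.46 lower in exercised WT than in WT on the log2 scale (-0.46 ± 0.146 SE; limma, unadjusted p = 0.0104, adjusted p = 0.108) and 0.49 higher in KE than in exercised WT (limma, unadjusted p = 0.00726, adjusted p = 0.658). With slide as a block the first value was -0.59. Mlxipl, the glucose-responsive transcription factor ChREBP, had the smallest p of the glucose genes in KE versus KO, at 0.59 ± 0.142 (SE; limma, adjusted p = 0.133) and 0.32 with the block. On the PI3K side Rheb, the GTPase that activates mTOR, had the smallest p in KE versus KO, at 0.75 ± 0.231 (SE; limma, adjusted p = 0.161) and 0.11 with the block, and Foxo3, a relative of Foxo1, had it in KE versus exercised WT, at -0.14 ± 0.057 (SE; limma, adjusted p = 0.733).

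Other probes met the screening criterion without an adjusted p under 0.05. The Ins2 probe, for insulin itself, read 5.42, 5.75 and 5.33 in WT and 5.86, 5.72 and 7.40 in KO. It read 7.16, 6.86 and 6.47 in exercised WT and 7.31, 7.30 and 7.07 in KE, so KO replicate 3 lay with the trained arrays of its slide. Ins2 was 1.33 higher in exercised WT than in WT (limma, adjusted p = 0.0962) and -0.28 with slide as a block. In KE versus WT it was 1.73 (limma, adjusted p = 0.0624) and 0.12 with the block. Single probes changed sign with the block for Pik3cd, a catalytic PI3-kinase subunit (1.20 in exercised WT versus WT, -0.38 with the block, and -0.13 with the block in KE versus WT, where it also met the criterion), Ptpn2, a phosphatase (1.01 in KE versus WT, -0.15 with the block), and Rps6kb1, the S6 kinase (1.11 in KE versus WT, -0.55 with the block). Other tested probes of Pik3cd, Ptpn2 and Rps6kb1 did not meet the criterion. A dim probe of Slc16a7, a monocarboxylate transporter, stood 1.04 higher in KE than in KO (limma, adjusted p = 0.224). It stood 1.02 higher in KE than in exercised WT (limma, adjusted p = 0.747). Both values were carried by KE replicate 3 at 6.74 against 4.53 and 5.11 in the other KE arrays. Brighter Slc16a7 probes stood at 0.22, -0.13 and -0.06 in KE versus KO and did not meet the criterion.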

How the data were processed

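Hypothalamus RNA was measured on 12 single-color arrays, 3 per group, grouped by the sample labels. The authors deposited scanner output, with the intensity of each spot from Agilent Feature Extraction 10.7.1.1, and a table of log2 values quantile-normalized in GeneSpring, which were used here. The deposited flags, listed per spot as a score of 0 or 1, gave detection and saturation. The authors' tables of comparisons hold their fold changes and p-values, and these and their 24 columns of values per sample were not used. Probes had to be well above background on every array of 1 group or more to be tested (35230 of 56605). A model of the 4 group means was run in limma 3.58.1 (R 4.3.3), with Benjamini-Hochberg adjustment over all probes tested, and checked on simulated data. Precision is limited by the number of arrays. Slides were read from the scanner output. Named genes were all members, with folds for probes at an unadjusted p of at most 0.05, the pathway genes at the screening criterion or otherwise with the smallest p, and the gene most correlated with each member's brightest probe. Members and lists, markers included, were chosen with earlier results of these data known. Alternatives changed the scaling, background correction, source of values, detection filter, test, arrays fitted, slide and replicate blocks, and left out each array. One gene of the pathway lists is not reported here by name. Promoters came from RefSeq (GRCm38.p6). Figures used matplotlib 3.10.9.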

Additional observations from a re-analysis of the deposited data

Results flagged for a closer look

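The interaction of Foxo1 2 was -0.49 ± 0.158 on the log2 scale (SE; limma, unadjusted p = 0.0117, adjusted p = 0.56), the difference of trained from untrained arrays being -0.37 in knockout and 0.11 in wild-type mice with 3 arrays per group. In wild-type mice that difference cannot be told apart from slide, and KO had arrays on both slides. One of 14 member probes passed that unadjusted level, against 7.75% of all probes, and it did not pass the adjusted threshold. With slide as a block the interaction was -0.62 (limma, adjusted p = 0.267). The other Foxo1 probe had an interaction of -0.12 (limma, adjusted p = 0.88), and -0.25 with slide as a block (limma, unadjusted p = 0.018, adjusted p = 0.386).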

How the results depend on the processing

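Slide, the array KO replicate 3 and the background correction each moved members' results. The number of members with an adjusted p under 0.05 ranged, leaving out 1 array at a time, from 0 to 5 in KE versus KO, from 0 to 2 in exercised WT versus WT and from 0 to 3 in KE versus WT, and in each the highest count came without KO replicate 3. In KE versus WT it was 2 by the methods' t-test, against 13.8% of all probes, and 3 in a fit of only the groups compared, against 17.6%. With slide as a block Irs2 1, Stat3 1 and Foxo1 1 reversed in KE versus WT, to 0.078, 0.06 and 0.093. With normexp background correction, values of KE versus WT came closer to 0 for Irs2 1 (-0.38 to -0.22) and Stat3 1 (-0.23 to -0.09), as did that of exercised WT versus WT for Akt2 3 (-0.26 to -0.13). Stat3 1 in KE versus WT was -0.14 without WT replicate 1. The 1 member at an unadjusted p of at most 0.05 in KE versus exercised WT became 0 without exercised WT replicate 1, KE replicate 2 or KE replicate 3, and 3 with normexp. The counts at the screening criterion stayed at 0 under all alternatives run. The 13 fold changes of probes at an unadjusted p of at most 0.05 kept direction and side of the adjusted threshold in 255 of 271 alternative values, 13 passed the threshold and 3 reversed. Many of these alternatives could not change direction, such as leaving out an array of neither group or changing only the test. All 13 failed the adjusted threshold with all arrays, so keeping its side meant staying uncalled, and the tally does not measure robustness. Same-numbered arrays did not clearly deviate together (r from -0.19 to 0.24 over 18 pairs, 4 of them over 0.1, and 5 of 12 arrays correlated best with their own number). Arrays of different number had r from -0.26 to 0.24 over 36 pairs, 4 of them over 0.1. The samples were treated as unpaired, although so few arrays cannot exclude a pairing. With the replicate number as a block 0 members had an adjusted p under 0.05 in every comparison, and the count of all probes called in KE versus KO went from 7 to 0. Signal near background limits Insr 2, Stat3 3 and Ptpn1 3.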

Other observations

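The other marker lists, read as summed linear signal, are given here over the arrays, and their part in the members' values was not tested. The hypothalamic markers summed to between 359300 and 426300 over all arrays, the 5 neuronal markers to between 112900 and 135700, and the 6 oligodendrocyte markers to between 137900 and 171200. The 4 ependymal and tanycyte markers summed to between 7279 and 10250, the 6 choroid plexus markers to between 4156 and 6710, the 5 thalamic markers to between 21200 and 26040 and the 3 blood markers to between 62220 and 117700. The 7 striatal markers summed to between 9571 and 18130, with the highest value in exercised WT. The 5 markers each for cortex and hippocampus and for the anterior pituitary included probes that were not tested, 3 and 2 of each 5 being tested, and their sums hold all 5. The cortical sum lay between 505.2 and 2051. The pituitary sum lay between 186.0 and 245.8 in WT, between 240.7 and 3146 in KO, between 234.8 and 1915 in exercised WT and between 230.2 and 2130 in KE.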
